A study of Mus musculus with 9 samples.

Results

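The 10 genes described here make, use or divert nicotinamide adenine dinucleotide (NAD), and were taken by symbol from the deposited table of 54532 genes, in which all 10 were found. They are 4 makers of NAD (Qprt, Naprt, Nampt and Nmnat1), 5 users of NAD (Cd38, Sirt1, Sirt3, Sirt5 and Sirt6) and Nnmt, which removes the precursor nicotinamide by methylation. RNA was measured by sequencing in whole liver from 9 male C57BL/6 mice, 3 in each of 3 groups. The young mice were 8 weeks old, and no injection is described for them. The mice of both old groups, kept until 20 months, had received adeno-associated virus 9 at the age of 14 months, through the tail vein and into subcutaneous white fat. The virus carried a negative control hairpin RNA (AAV9-shRNA-Neg) in the old control group and a hairpin RNA against Fabp4 (AAV9-shRNA-Fabp4) in the group labelled old Fabp4 shRNA. Against young liver, age and virus injection differ at once and cannot be told apart. The promoter that drove the hairpins is not given in the sources used here.

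NAD carries electrons in hepatic fuel oxidation and is also consumed as a substrate. Liver can build it from tryptophan through quinolinate, from nicotinic acid, and by salvage of the nicotinamide that NAD-consuming enzymes release. Qprt acts on the quinolinate of the tryptophan route, while Naprt and Nampt catalyse the entry step of the nicotinic acid and salvage routes. Nmnat1 is the nuclear enzyme of the final step. Sirtuins use NAD to remove acyl groups from proteins, in the nucleus (Sirt1, Sirt6) or the mitochondria (Sirt3, Sirt5), and Cd38 is a cell-surface glycohydrolase that breaks NAD down. Transcript levels do not measure NAD itself, which was not measured here.

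Total counts ran from 14243344 to 17125440 per library. The members were covered by between 17 counts (Sirt6 in young replicate 5) and 9874 counts (Nnmt in 1 young library). That young library has a column name that matches no animal number in the labels and is called the unnumbered young library. Its 7 skeletal muscle marker genes summed to 3087 CPM (counts scaled to library size), against 73.4 CPM in old Fabp4 shRNA replicate 3, of which the muscle actin Acta1 made up 41.3 CPM, and 0.589 to 2.51 CPM in the other 7 libraries. Values are given below in a fixed order: young replicate 1, unnumbered and 5, old control replicates 1, 2 and 5, then the hairpin group, labelled old Fabp4 shRNA, replicates 1, 3 and 6. The targeted gene Fabp4 had CPM values of 3.40, 64.8 and 2.67 (young), 7.21, 13.6 and 10.9 (old control) and 11.2, 3.81 and 7.58 (hairpin group). These groups overlapped, with a log2 difference between the old groups of -0.49 ± 1.16 (SE) and an adjusted p of 0.960 in edgeR, so no statement below rests on a measured knockdown in liver. All 6 hepatocyte markers were detected in every library, led by albumin (Alb). Their summed level ran from 97871 to 158889 CPM in young, from 81405 to 125541 CPM in old control and from 65225 to 82396 CPM in old Fabp4 shRNA, where it lay wholly below young. The extraction text of the labels names NRVMs, while their tissue field says liver.

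Levels of different genes are compared per kilobase of transcript (CPM per kilobase), because longer transcripts collect more reads. Nnmt was the highest member, with a mean over the 9 libraries of 229 CPM per kilobase and a range of 125 to 400 that did not overlap that of any other member. Naprt followed at 74.8 and Qprt at 45.4 CPM per kilobase, with Naprt above Qprt in 8 of 9 libraries. Nampt had a mean of 13.2 CPM per kilobase, Sirt3 of 7.44 and Nmnat1 of 5.58, each above the next in 8 of 9 libraries with overlapping ranges. Cd38 at 2.51 and Sirt1 at 2.49 CPM per kilobase did not differ beyond their spread, and Cd38 was the higher in 4 of 9 libraries. Sirt5 at 1.35 and Sirt6 at 0.995 CPM per kilobase were the lowest, also with overlapping ranges. Over the 9 libraries Cd38 spanned 4.01-fold from its lowest to its highest value and Sirt1 1.56-fold.

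**Figure D1:**
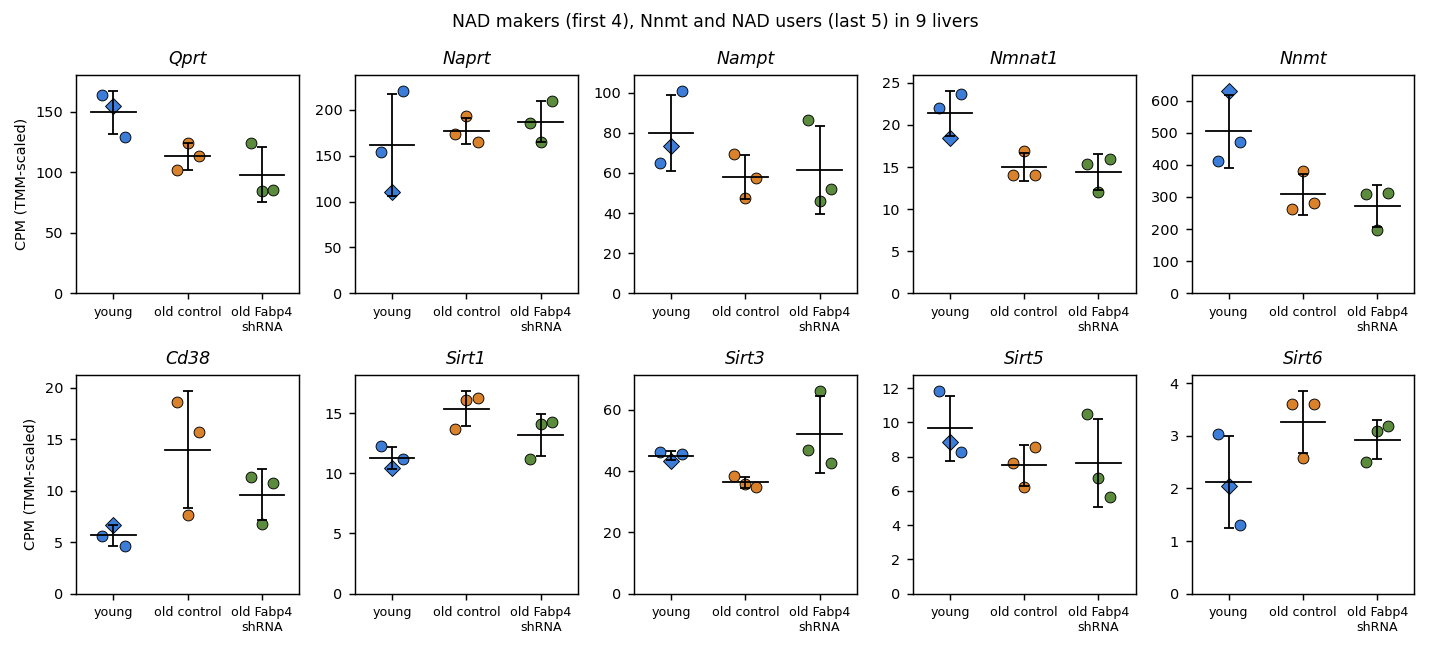
TMM-scaled CPM (y axes, from 0) of the 10 genes in the 9 livers by group, with the group mean as a bar, the SD as whiskers and the unnumbered young library as a diamond. Cd38 runs from 4.66 to 6.70 CPM in young liver and from 7.65 to 18.7 CPM in old control liver, while Naprt overlaps in all groups.

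In old control against young liver, none of the 10 members passed the test (edgeR's quasi-likelihood test, Benjamini-Hochberg adjusted p under 0.05 over 14025 genes), where 0.0357% of all tested genes did. Before adjustment 3 of the 10 had a p under 0.05 (Cd38, Nnmt and Nmnat1), beside 10.5% of all tested genes. The 3 old values lay wholly above or below the 3 young values for 6 of the 10, beside 17.2% of all tested genes. Cd38 and Sirt1 were higher in old control liver (2 of 10, beside 8.89% of all tested genes), and Qprt, Nmnat1, Nnmt and Sirt3 were lower (4 of 10, beside 8.26%). For each of these 6 an exact two-sided permutation test gave p = 0.1, the smallest that 3 livers against 3 allow. Groups that do not overlap always give this value, so it restates the non-overlap and adds no evidence. The median log2 difference was -0.43 over the 4 makers and 0.44 over the 5 users, against 0.01 over all tested genes. The users lay on both sides of 0 (3 above, 2 below, from -0.36 to 1.30), and so did the makers (1 above, Naprt, and 3 below, from -0.51 to 0.13). The medians between the old groups were 0.01 over the makers and -0.16 over the users, against -0.01 over all tested genes. With the unnumbered young library left out, the same 6 genes did not overlap, beside 31.7% of all tested genes. With reads recovered from the FPKM column of that name they were 5, without Nnmt, beside 22.3%.

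In the libraries labelled old Fabp4 shRNA against old control, again none of the 10 passed, and edgeR called 0.0% of all tested genes (0 of 14025; DESeq2 called 7). A single gene, Sirt3, had an unadjusted p under 0.05, beside 6.75% of all tested genes, and was also the 1 member whose groups did not overlap, beside 11.7% in either direction and 6.02% higher. In the same libraries against young, none passed, where 0.057% of all tested genes did, and 4 of 10 had an unadjusted p under 0.05 (Nnmt, Qprt, Nmnat1 and Cd38), beside 8.93%. These same 4 were the members whose groups did not overlap, beside 13.5%, with Cd38 higher (6.79% of all tested genes were) and the other 3 lower (6.67% were). The hepatocyte marker sum, most of it Alb, was lower without overlap in the same comparison. Of its 6 genes, 2 were lower without overlap, beside 6.67% of all tested genes, and 1 had a log2 difference above 0 (0.26). The median over the 6 was -0.57. The part of hepatocyte RNA in the lower values of Nnmt, Qprt and Nmnat1 was not tested. The 3 comparisons share libraries, so a difference from old control and one from young are not independent for any gene. Without scaling factors the median of all tested genes moved from 0.01 to 0.16 in old control against young, from -0.01 to 0.13 between the old groups and from 0.02 to 0.31 in old Fabp4 shRNA against young. In the last of these, unscaled values put 4 members above young without overlap (Sirt1, Sirt3, Sirt6 and Cd38) and 0 below, beside 21.4% of all tested genes in either direction. The directions given here are relative to the scaled median of all genes.

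**Figure D2:**
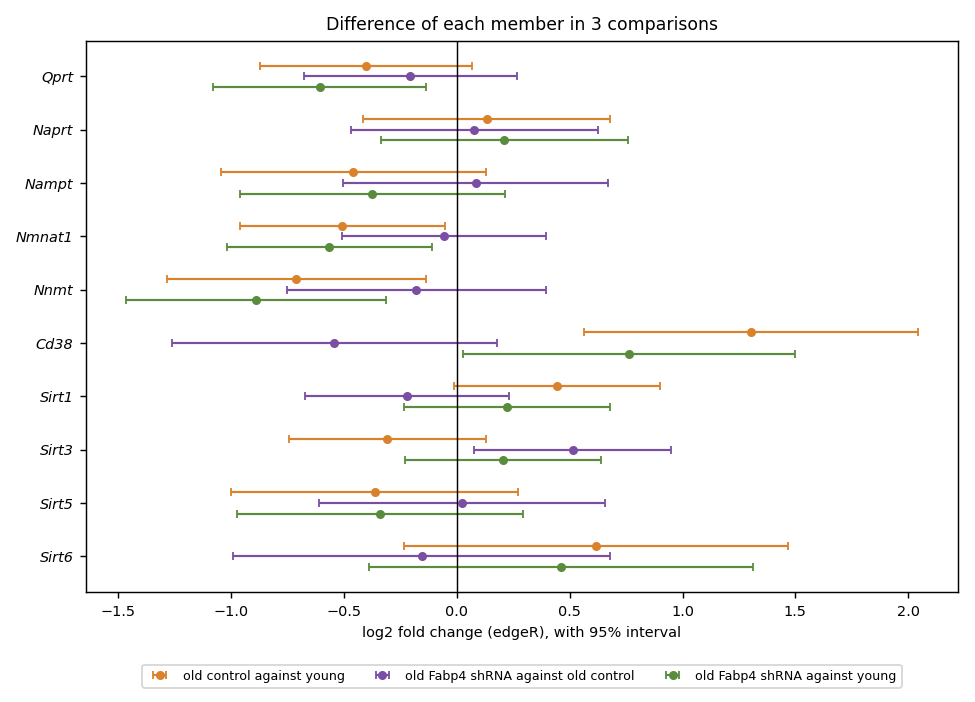
Log2 fold change from edgeR (x axis) with its 95% interval for the 10 genes (y axis) in the 3 comparisons, by colour. The interval of Cd38 in old control against young runs from 0.57 to 2.04, and that of Sirt3 between the old groups from 0.08 to 0.95, while the intervals of Naprt, Nampt, Sirt1, Sirt5 and Sirt6 cross 0 in all 3.

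Cd38 (ENSMUSG00000029084, chromosome 5, 43868553 to 43912375, GRCm38, plus strand) had the largest log2 difference of the 10 in old control against young. Its levels were 5.62, 6.70 and 4.66 CPM in young liver, 18.7, 7.65 and 15.7 CPM in old control and 11.4, 6.78 and 10.7 CPM in the hairpin group. Every old liver was above every young liver, but 1 library of each old group (7.65 and 6.78 CPM) lay close to the highest young value of 6.70 CPM. The old groups overlapped. Gm16014 on the same strand and Gm16015 on the opposite strand overlap Cd38, and how reads in the shared stretches were assigned is not known here. The mean was 5.66 ± 1.02 CPM (SD, n = 3) in young liver. It was 14.0 ± 5.69 CPM in old control and 9.62 ± 2.47 CPM in the hairpin group, each with the SD over 3 livers. Old control was 1.30 ± 0.34 (SE) above young on the log2 scale, with an edgeR p of 0.00222 and an adjusted p of 0.258. DESeq2 called this difference (1.28, adjusted p = 0.0399) and no member in the other comparisons, and the Cd38 call also came from edgeR without a filter on low counts (1.28, adjusted p = 0.0189). Over all 21 alternatives the log2 difference ran from 0.88 to 1.74 and the adjusted p from 0.0189 to 0.635. The value of 1.74 came from the fit with the animal number as a block, to which old control replicate 2 (7.65 CPM) contributed nothing. The difference of old Fabp4 shRNA from young was 0.76 ± 0.34 (SE), with an adjusted p of 0.545 in edgeR. That from old control was -0.54 ± 0.33 (SE), with a 95% interval of -1.26 to 0.18 and an adjusted p of 0.793. Without old control replicate 2 this last value was -0.83 ± 0.30 (SE), with an adjusted p of 0.685, and without replicate 3 of the hairpin group it was -0.34 ± 0.35 (SE), with an adjusted p of 0.962.

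Cd38 is known as a surface protein of immune and other non-parenchymal liver cells, so the marker genes of those cells are given beside it. The 5 endothelial markers summed to 57.9 to 66.4 CPM in young, 69.5 to 140 CPM in old control and 69.3 to 140 CPM in old Fabp4 shRNA. Within old control that sum had the order of Cd38, at 140, 69.5 and 110 CPM. Within the other groups it did not, at 66.4, 60.7 and 57.9 CPM in young and 140, 75.9 and 69.3 CPM in the hairpin group. The 7 stellate cell and fibroblast markers summed to 110 to 159 CPM in young, 175 to 346 CPM in old control and 178 to 248 CPM in old Fabp4 shRNA. For both sums the old libraries thus stood above the young ones. Gene by gene, 2 of 5 endothelial and 3 of 7 stellate markers lay above young without overlap in old control, beside 8.89% of all tested genes. In the hairpin group 3 and 4 did, beside 6.79%. Dcn made up most of the stellate sum, at 69.8 to 92.4 CPM in young, 122 to 242 CPM in old control and 130 to 178 CPM in the hairpin group. The 7 Kupffer cell and macrophage markers summed to 128 to 203, 160 to 494 and 93.1 to 162 CPM in young, old control and old Fabp4 shRNA. The 7 B and plasma cell markers summed to 67.7 to 84.5, 167 to 394 and 65.0 to 165 CPM in the same order. That sum lay wholly above young in old control but overlapped young in the hairpin group. Igkc made up most of it, at 51.5 to 68.0, 146 to 329 and 51.3 to 131 CPM in the same order. Of its 7 genes, 2 lay above young without overlap in old control, beside 8.89% of all tested genes. In the hairpin group 2 of the 7 had a log2 difference from young above 0, beside 52.2% of all tested genes. Within the hairpin group the macrophage sum (162, 93.1 and 145 CPM) and the B and plasma cell sum (165, 65.0 and 128 CPM) had the order of Cd38. Within young the stellate sum had it (122, 159 and 110 CPM). None of the 4 lists had that order in every group. None of the markers in these 4 lists was at 0 in any library. The 6 T and NK cell markers summed to 4.92 to 7.47, 3.97 to 10.9 and 6.84 to 8.41 CPM, and the 5 neutrophil markers to 11.4 to 22.3, 16.4 to 53.4 and 5.52 to 14.3 CPM, so that both lists overlapped between each old group and young. The part of these cell types in the Cd38 difference was not tested. In bulk liver a change in the number of cells of a type and a change in RNA per cell cannot be told apart.

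**Figure D3:**
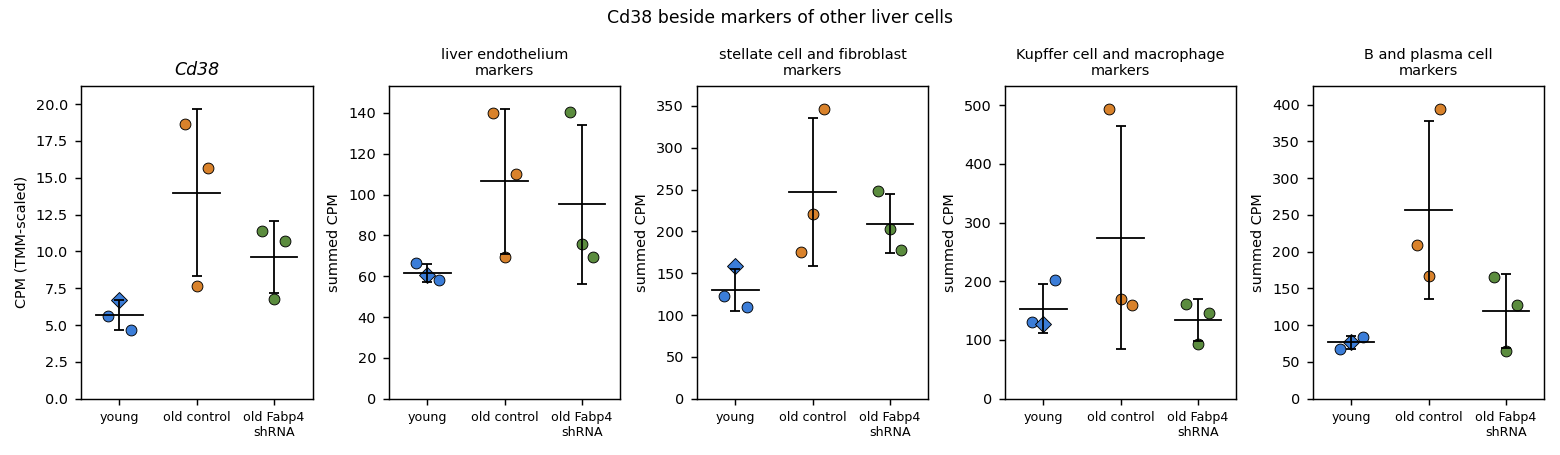
CPM of Cd38 and summed CPM of 4 marker lists (y axes, from 0) in the 9 livers by group, with means, SDs and the unnumbered young library as a diamond. The endothelial and stellate sums, like Cd38, are higher in all 6 old libraries than in all 3 young ones. The B and plasma cell sum is wholly above young in old control only, and the macrophage sum overlaps young in both old groups.

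The 3 genes whose log2 CPM followed Cd38 most closely over the 9 libraries were Msn (Pearson r of 0.955), Unc5a (0.947) and Clec14a (0.946). Msn encodes moesin, a linker of membrane and actin cytoskeleton, Unc5a a netrin receptor, and Clec14a a surface protein of endothelial cells. Clec14a ranked the 9 libraries exactly as Cd38 did, from 2.90 CPM in young replicate 5 to 8.31 CPM in old control replicate 1. Msn ran from 12.2 CPM in young replicate 1 to 35.4 CPM in old control replicate 1. These genes were picked as the closest of all tested genes, so their correlations are descriptions, and all points share the libraries' scaling and their cell makeup.

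Nnmt (ENSMUSG00000032271, chromosome 9, 48591877 to 48605153, GRCm38, minus strand) uses S-adenosylmethionine to methylate nicotinamide. Its levels were 412, 630.5 and 471 CPM in young liver, 264, 381 and 279.9 CPM in old control and 309, 196 and 311 CPM in the hairpin group. All 6 old livers were below all 3 young livers, and the old groups overlapped. The log2 difference of old control from young was -0.71 ± 0.27 (SE), with an edgeR p of 0.0194 and an adjusted p of 0.401. The libraries labelled old Fabp4 shRNA differed from young by -0.89 ± 0.27 (SE), with a p of 0.00550 and an adjusted p of 0.402. Between the old groups the value was -0.18 ± 0.26 (SE), and it lay at 0.01 without old control replicate 2 or without old Fabp4 shRNA replicate 3. The highest Nnmt value belonged to the unnumbered young library. With its reads recovered from the FPKM column, the old control and young groups overlapped and the log2 difference was -0.43 ± 0.25 (SE), and for old Fabp4 shRNA it was -0.58 ± 0.25 (SE). Leaving that library out gave -0.55 ± 0.28 and -0.70 ± 0.28 (SE).

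Following Nnmt most closely over the 9 libraries were Smarce1 (Pearson r of 0.971), a subunit of a chromatin remodelling complex, Slc39a5 (0.959), a zinc transporter, and Nrg4 (0.951), a neuregulin growth factor. Smarce1 ranked the libraries exactly as Nnmt did, from 23.8 CPM in old Fabp4 shRNA replicate 3 to 36.7 CPM in the unnumbered young library.

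Qprt (ENSMUSG00000030674, chromosome 7, 127107114 to 127122226, GRCm38, minus strand) turns quinolinate from tryptophan breakdown into nicotinate mononucleotide. Its levels were 164, 155 and 129 CPM in the young libraries, 102, 124 and 113 CPM in old control and 124, 84.8 and 85.2 CPM in old Fabp4 shRNA. Both old groups lay below all young libraries. The log2 difference from young was -0.40 ± 0.22 (SE) for old control, with an edgeR adjusted p of 0.537. For old Fabp4 shRNA it was -0.61 ± 0.22 (SE), with p-values of 0.0155 before and 0.480 after adjustment in edgeR. Between the old groups it was -0.21 ± 0.22 (SE), with a 95% interval of -0.68 to 0.26.

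Naprt (ENSMUSG00000022574, chromosome 15, 75890956 to 75894481, GRCm38, minus strand) opens the route from nicotinic acid. It stood at 154, 110.02 and 221 CPM in young, 174, 193 and 165 CPM in old control and 185, 165 and 209.9 CPM in old Fabp4 shRNA. The lowest and the highest value were both young, and the groups overlapped in all 3 comparisons. Its log2 differences were 0.13 ± 0.25, 0.08 ± 0.25 and 0.21 ± 0.25 (SE) for old control against young, between the old groups and for old Fabp4 shRNA against young. Without the unnumbered young library the first was -0.11 and the last -0.0028. Naprt overlaps Eef1d on the same strand, and how reads shared by both were counted is not given in the sources used here.

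Nmnat1 (ENSMUSG00000028992, chromosome 4, 149467572 to 149485202, GRCm38, minus strand) was lower in every old liver than in every young one. It stood at 22.0, 18.4 and 23.7 CPM in young, 14.1, 16.9 and 14.1 CPM in old control and 15.3, 12.0 and 15.9 CPM in old Fabp4 shRNA. The log2 difference from young was -0.51 ± 0.21 (SE) for old control, with an edgeR p of 0.0309 and an adjusted p of 0.423. For old Fabp4 shRNA it was -0.57 ± 0.21 (SE), with a p of 0.0184 and an adjusted p of 0.484. Between the old groups it was -0.06 ± 0.21 (SE), with a 95% interval of -0.51 to 0.40. Tmem274 overlaps Nmnat1 on the opposite strand, and the strand setting of the counting is not given in the sources used here.

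Nampt (ENSMUSG00000020572, chromosome 12, 32819545 to 32853349, GRCm38, plus strand), the rate-limiting enzyme of the salvage route, varied within each group. Its levels were 65.1, 73.6 and 101 CPM in young, 69.2, 47.4 and 57.7 CPM in old control and 86.5, 45.9 and 52.2 CPM in old Fabp4 shRNA. The groups overlapped in all 3 comparisons. The log2 difference was -0.46 ± 0.27 (SE) for old control against young, with an edgeR adjusted p of 0.564, and -0.38 ± 0.27 (SE) for old Fabp4 shRNA against young, with an adjusted p of 0.691. Between the old groups it was 0.08 ± 0.27 (SE), and without old Fabp4 shRNA replicate 1 it was -0.24 ± 0.25 (SE). Nampt shares its locus with the non-coding gene Gdap10 on the same strand.

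Nampt is a known target of the circadian clock, and the livers differed in their clock transcripts. Dbp, a clock output gene, stood at 100.3, 32.4 and 90.1 CPM in young, 0.581, 0.589 and 16.4 CPM in old control and 53.5, 0.496 and 4.86 CPM in old Fabp4 shRNA. Arntl, a core clock activator that peaks opposite to Dbp, stood at 3.25, 4.85 and 0.916 CPM in young, 23.5, 19.1 and 6.75 CPM in old control and 0.916, 28.7 and 8.25 CPM in old Fabp4 shRNA. The order of Nampt within a group did not follow these genes in the same way throughout. The hairpin library with the most Nampt (replicate 1) had the most Dbp and the least Arntl, whereas the old control library with the most Nampt (replicate 1) had almost no Dbp (0.581 CPM) and the most Arntl. In young liver the library with the least Nampt (replicate 1) had the most Dbp. The sources used here give no hours of collection. Of the 16 clock genes, edgeR called 0 in each comparison by adjusted p. Its unadjusted p was under 0.05 for 6 in old control against young, beside 10.5% of all tested genes. It was so for 2 between the old groups, beside 6.75%, and for 3 in old Fabp4 shRNA against young, beside 8.93%. Between old control and young 11 of the 16 did not overlap (4 higher, 7 lower), beside 17.2% of all tested genes. The count was 1 in old Fabp4 shRNA against young, beside 13.5%, and 1 between the old groups, beside 11.7%. Their part in the Nampt values was not tested. The genes closest to Nampt over the 9 libraries were 2510046G10Rik (Pearson r of 0.960), Tdp1 (0.943), an enzyme of DNA repair, and Chadl (0.939), all at 3.74 CPM or less.

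**Figure D4:**
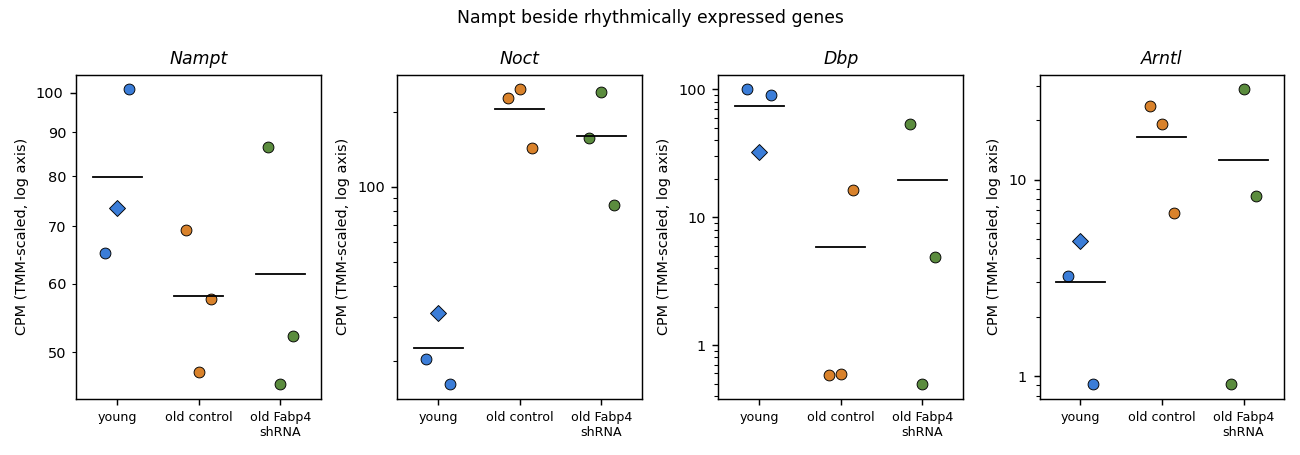
CPM of Nampt, Noct, Dbp and Arntl (log y axes) in the 9 livers by group, with group means as bars and the unnumbered young library as a diamond. Noct lies between 16.1 and 31.2 CPM in young and between 84.3 and 246 CPM in old liver, and Dbp spans 0.496 to 100.3 CPM.

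The stretches before the starts of Nampt and Sirt1 are shown because Nampt is a known clock target and Sirt1, whose protein depends on the NAD that Nampt salvages, lay on the opposite side of young in the mean of old control liver. They come from RefSeq on GRCm38.p6, where 8 of the 10 members had an entry, and positions are relative to the RefSeq starts. Both stretches lie inside the gene spans given here, which start further upstream, at 32819545 for Nampt and 63381704 for Sirt1. The bases before those upstream starts were not searched. Nnmt and Naprt are named only. Capitals mark CACGTG (the E-box read by clock activators, the same on both strands) and GGGCGG or its reverse complement CCGCCC (the GC box). The first runs from chr12:32820085-32820334 on the plus strand, the second from chr10:63339051-63339285 on the minus strand, without the exonic bases at its end.
Nampt: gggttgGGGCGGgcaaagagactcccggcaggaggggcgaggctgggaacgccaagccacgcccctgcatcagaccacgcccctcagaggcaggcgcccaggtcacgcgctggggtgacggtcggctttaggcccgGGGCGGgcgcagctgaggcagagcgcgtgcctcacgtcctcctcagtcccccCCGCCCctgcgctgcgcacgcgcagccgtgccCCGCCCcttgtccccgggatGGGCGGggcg
Sirt1: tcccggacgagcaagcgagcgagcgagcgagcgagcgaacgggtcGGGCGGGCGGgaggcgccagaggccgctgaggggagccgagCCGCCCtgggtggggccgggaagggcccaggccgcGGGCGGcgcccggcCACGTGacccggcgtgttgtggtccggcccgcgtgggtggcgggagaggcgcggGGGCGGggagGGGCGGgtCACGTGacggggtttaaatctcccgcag
The Nampt stretch of 250 bases holds 5 GC boxes and 0 E-boxes. That of Sirt1 holds 2 E-boxes, whose first bases lie at -115 and -43 from the start, and 6 GC boxes, of which 2 overlap each other. No E-box overlaps a GC box in either. Among 32817 RefSeq promoters, 6.02% hold an E-box and 32.7% a GC box in the 250 bases before the start. Among the 8 members with an entry, Sirt1 alone held CACGTG in that window. A match describes letters and no binding was measured.

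Sirt1 (ENSMUSG00000020063, chromosome 10, 63319005 to 63381704, GRCm38, minus strand), a nuclear deacetylase, stood at 12.3, 10.5 and 11.1 CPM in young and 13.7, 16.1 and 16.3 CPM in old control. In old Fabp4 shRNA it stood at 11.2, 14.1 and 14.3 CPM. Old control was above young without overlap, and the hairpin group overlapped both. The log2 difference from young was 0.44 ± 0.21 (SE) for old control, with an edgeR p of 0.0560 and an adjusted p of 0.484. For old Fabp4 shRNA it was 0.22 ± 0.21 (SE), and between the old groups -0.22 ± 0.21 (SE), with a 95% interval of -0.67 to 0.23. Gm16145 is annotated antisense to Sirt1, so its reads cannot be told apart from those of Sirt1 if the counting ignored strand.

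Sirt3 (ENSMUSG00000025486, chromosome 7, 140863666 to 140882309, GRCm38, minus strand), the main mitochondrial deacetylase, had the tightest values in young and old control liver and wider ones in the hairpin group. It stood at 46.1, 43.4 and 45.6 CPM in young, 38.4, 35.8 and 34.9 CPM in old control and 47.0, 66.1 and 42.7 CPM in old Fabp4 shRNA. Old control was thus below both other groups without overlap, while young and old Fabp4 shRNA overlapped. Old Fabp4 shRNA against old control gave 0.51 ± 0.20 (SE) on the log2 scale, with an edgeR p of 0.0247 and an adjusted p of 0.728. Without old Fabp4 shRNA replicate 3 the value was 0.30 ± 0.19 (SE), with an adjusted p of 0.899, and the groups still did not overlap. Over the 21 alternatives it ran from 0.30 to 0.65 with adjusted p-values from 0.449 to 0.997. Old control against young gave -0.31 ± 0.20 (SE), with an adjusted p of 0.604, and old Fabp4 shRNA against young 0.21 ± 0.20 (SE), with an adjusted p of 0.776. Psmd13 and Ric8a overlap Sirt3 on the opposite strand, so reads of these genes may be counted with it.

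Sirt5 (ENSMUSG00000054021, chromosome 13, 43365496 to 43395203, GRCm38, plus strand), which removes succinyl and malonyl groups, stood at 11.8, 8.88 and 8.24 CPM in young, 7.61, 6.25 and 8.59 CPM in old control and 10.5, 6.73 and 5.64 CPM in old Fabp4 shRNA. Its groups overlapped throughout, with log2 differences of -0.36 ± 0.29, 0.02 ± 0.29 and -0.34 ± 0.29 (SE) for old control against young, between the old groups and for old Fabp4 shRNA against young. Sirt6 (ENSMUSG00000034748, chromosome 10, 81621785 to 81627797, GRCm38, minus strand), a nuclear sirtuin of chromatin and DNA repair, stood at 3.03, 2.04 and 1.30 CPM in young, 3.60, 2.58 and 3.60 CPM in old control and 2.50, 3.09 and 3.19 CPM in old Fabp4 shRNA. These values rest on 17 to 62 counts, and the groups overlapped. The log2 differences of Sirt6, in the same order, were 0.62 ± 0.39, -0.16 ± 0.39 and 0.46 ± 0.39 (SE).

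Makers and users were then summed per kilobase in each library, as a description with no test. The 4 makers summed to 148, 126 and 171 CPM per kilobase in young, 131, 144 and 129 in old control and 148, 116 and 137 in old Fabp4 shRNA. The 5 users summed to 14.5, 13.1 and 12.7 CPM per kilobase in young, 16.3, 12.9 and 15.6 in old control and 15.5, 17.7 and 14.6 in old Fabp4 shRNA. The ratio of makers to users was 10.2, 9.59 and 13.4 in young, 8.01, 11.1 and 8.27 in old control and 9.55, 6.55 and 9.38 in old Fabp4 shRNA. Young and old Fabp4 shRNA did not overlap in this ratio, by 9.59 against 9.55, whereas old control overlapped both. The means were 11.1 ± 2.04 (SD, n = 3) in young, 9.14 ± 1.74 (SD, n = 3) in old control and 8.49 ± 1.68 (SD, n = 3) in old Fabp4 shRNA. With the recovered reads the young mean was 11.4.

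Naprt and Qprt made up most of the maker sum, and Sirt3 most or a large part of the user sum. Naprt held 37.2% to 55.1% of the maker sum in young, 54.5% to 57.1% in old control and 53.4% to 65.2% in old Fabp4 shRNA. Nampt held 6.50% to 11.7% over the 9 libraries. Sirt3 held 53.2% to 59.9% of the user sum in young, 37.4% to 46.4% in old control and 48.8% to 62.6% in old Fabp4 shRNA. Cd38 held 9.39% to 13.1%, 15.2% to 29.4% and 9.88% to 18.8% in the same order. In every library Naprt held a larger share of the maker sum than Nampt, and Sirt3 a larger share of the user sum than Cd38, by the smallest margin in old control replicate 1 (39.4% against 29.4%). The ratio of Nampt to Cd38 per kilobase was 8.44 to 16.7 in young, 2.84 to 4.77 in old control and 3.75 to 5.86 in old Fabp4 shRNA, so both old groups lay below young on this pair.

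**Figure D5:**
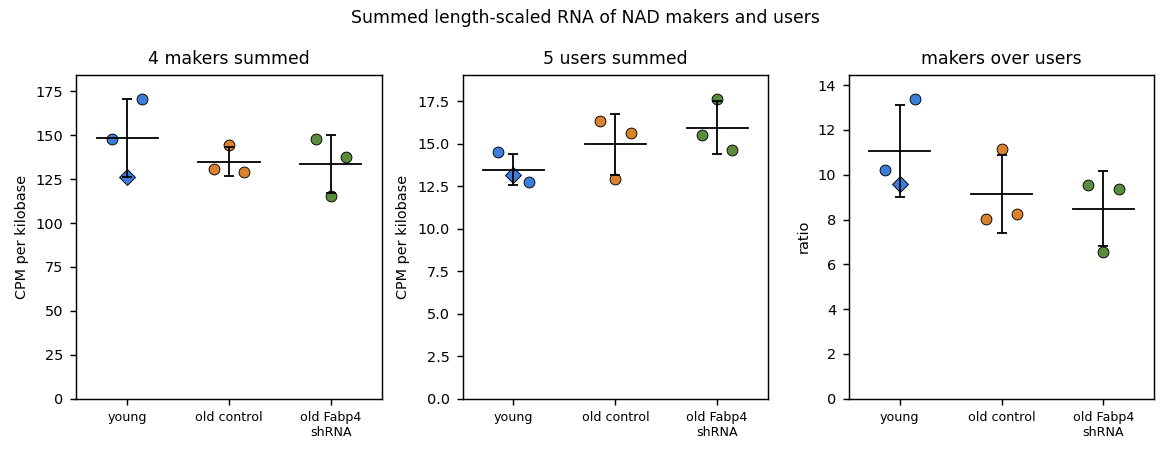
Summed CPM per kilobase of the 4 makers and of the 5 users, and their ratio (y axes, from 0), in the 9 livers by group, with means, SDs and the unnumbered young library as a diamond. The ratio runs from 9.59 to 13.4 in young, from 8.01 to 11.1 in old control and from 6.55 to 9.55 in old Fabp4 shRNA.

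Of 45 other genes of NAD metabolism listed by route, 39 were tested. The test called 1 of them in old control against young and 1 in old Fabp4 shRNA against young, beside 0.0357% and 0.057% of all tested genes. Between the old groups it called 0, beside 0.0%. In old control against young 19 of the 39 had a log2 difference above 0, beside 51.1% of all tested genes, and in old Fabp4 shRNA against young 18 of the 39, beside 52.2%, with medians of -0.02 and -0.06. The called gene was Noct, nocturnin, a rhythmic phosphatase of NADP(H). Noct stood at 20.3, 31.2 and 16.1 CPM in young, 228, 246 and 143 CPM in old control and 157, 239.7 and 84.3 CPM in old Fabp4 shRNA. Both old groups were far above young, and overlapped each other. Noct rose by 3.19 ± 0.40 (SE) on the log2 scale in old control against young, with an edgeR adjusted p of 0.0121, and by 2.83 ± 0.40 (SE) in old Fabp4 shRNA against young, with an adjusted p of 0.0287. The first call was lost without replicate 1 or 5 of young (3.12 and 3.00, adjusted p = 0.141 and 0.0838) and without replicate 1 or 2 of old control (3.11 and 3.04, adjusted p = 0.0979 and 0.0854) in edgeR. The second was lost in 6 of the 9 such edgeR fits, with the adjusted p at 0.255 without young replicate 1, 0.104 without young replicate 5, 0.102, 0.0636 and 0.0533 without old control replicates 1, 2 and 5, and 0.0841 without old Fabp4 shRNA replicate 3. It was lost also with limma-voom (0.0738) and in edgeR fitted to the 6 libraries compared (0.121). Dbp and Arntl did not overlap between old control and young but overlapped between old Fabp4 shRNA and young, and passed edgeR's test in neither comparison. Their part in the Noct result was not tested.

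Among the upstream genes of tryptophan breakdown, 6 of 7 tested had a log2 difference below 0 in old control against young. In old Fabp4 shRNA against young 7 of 7 did. Of all tested genes, 51.1% and 52.2% lay above 0 in these comparisons. The medians of the 7 were -0.39 and -0.49, with 0 called. The 6 hepatocyte markers had medians of -0.18 and -0.57, and the part of hepatocyte RNA here was not tested. Tdo2, the first enzyme of the hepatic route, stood at 1032, 2171 and 865 CPM in young, 552, 1034 and 1016 CPM in old control and 1078, 1661 and 1252 CPM in old Fabp4 shRNA. All 3 hairpin libraries were above all 3 old control libraries, by 0.62 ± 0.37 (SE) on the log2 scale, with an edgeR adjusted p of 0.789. Against young, old Fabp4 shRNA gave -0.03 ± 0.37 (SE), which turned to 0.49 ± 0.34 (SE) without the unnumbered young library. Ido2, a related dioxygenase, gave -0.66 ± 0.24 (SE) in old Fabp4 shRNA against young, with an adjusted p of 0.482. Acmsd, which diverts the pathway away from quinolinate, stood at 43.4, 35.1 and 18.9 CPM in young, 17.7, 22.0 and 16.3 CPM in old control and 8.12, 14.3 and 17.9 CPM in old Fabp4 shRNA. Its log2 difference between old Fabp4 shRNA and young was -1.27 ± 0.33 (SE), with an edgeR p of 0.00241 and an adjusted p of 0.343, without overlap. Acmsd was called by edgeR without the filter on low counts (-1.26, adjusted p = 0.0107). Kyat1, an aminotransferase of the side branch to kynurenic acid, was lower in old control than in young without overlap, at a log2 difference of -0.69 ± 0.25 (SE) and an edgeR adjusted p of 0.385.

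Of the other makers, all 3 tested had a log2 difference below 0 in both comparisons with young. Nmnat3, the mitochondrial counterpart of Nmnat1, stood at 12.3, 6.39 and 9.85 CPM in young, 3.72, 3.53 and 5.05 CPM in old control and 9.22, 3.03 and 4.39 CPM in old Fabp4 shRNA. Old control was below young without overlap, at a log2 difference of -1.21 ± 0.41 (SE), with an edgeR p of 0.0115 and an adjusted p of 0.366. Nadsyn1, which amidates the product of the Qprt and Naprt routes to NAD, overlapped in all comparisons, at -0.09 ± 0.31, -0.35 ± 0.31 and -0.44 ± 0.31 (SE) for old control against young, between the old groups and for old Fabp4 shRNA against young. Nmrk2, a nicotinamide riboside kinase of muscle, had 21 counts in the unnumbered young library and 0 in the other 8, where 3 counts stand for 0.175 to 0.211 CPM. That library had the highest skeletal muscle marker sum.

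Among the 10 tested of 11 other NAD-consuming enzymes, 7 had a log2 difference above 0 in old control against young and 8 in old Fabp4 shRNA against young, with medians of 0.32 and 0.25 and 0 called. Of the other 3 sirtuins (Sirt2, Sirt4 and Sirt7), 1 lay above 0 in old control against young (median -0.09). In old Fabp4 shRNA against young 0 of 3 did (median -0.15), and 0 were called in either. Parp9, an interferon-linked member of the poly-ADP-ribose polymerase family, was at 31.8, 38.2 and 33.5 CPM in young, 62.9, 55.6 and 37.9 CPM in old control and 51.6, 55.3 and 52.7 CPM in old Fabp4 shRNA. Its log2 difference from young was 0.60 ± 0.21 (SE, adjusted p = 0.385 in edgeR) and 0.62 ± 0.21 (SE, adjusted p = 0.458). Parp4, the polymerase of vault particles, gave -0.33 ± 0.24 (SE) between the old groups, with an adjusted p of 0.833. Sarm1, an NAD hydrolase best known from axons, rested on 1 to 21 counts per library. Its counts were 6, 12 and 11 in young, 4, 3 and 1 in old control and 21, 13 and 11 in old Fabp4 shRNA. The log2 difference between the old groups was 2.26 ± 0.69 (SE), with an edgeR p of 0.00600 and an adjusted p of 0.728. On log2(FPKM + 1) it was 0.15. Of the 7 genes of nicotinamide and NAD breakdown or release, 5 lay above 0 in both comparisons with young, with medians of 0.23 and 0.47 and 0 called.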

How the data were processed

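The submitters' processing notes name HISAT2 and the build GRCm38.p6. How reads were assigned to genes, and whether by strand, is not given in these sources. The authors deposited whole read counts per gene with no scaling. The authors also deposited FPKM, counts scaled to gene length and library size, from which gene lengths were taken. Columns that matched no sample or group numbered 0. FPKM and counts kept one ratio per column, at a given gene length, for 100% of 10483 genes in 8 columns (tolerance 0.001), but for 0.229% in the unnumbered young column. Its FPKM was turned back into whole reads as an alternative (100% of 17877 values within 0.05 of a whole read). This left out 433 genes, of which 226 were lost in the recovery and 207 could not be matched by symbol. The recovered library held 11805823 reads, against 16187004 in its count column. On this alternative edgeR called 10, 0 and 62 genes.

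The analysis started from the counts. edgeR 4.0.16 in R 4.3.3 filtered genes with filterByExpr, scaled libraries by TMM and fitted group means to all 9 libraries by robust quasi-likelihood, with 6 residual degrees of freedom. Tests are two-sided, p-values were adjusted by Benjamini-Hochberg over 14025 genes, and calls are at 0.05. CPM are TMM-scaled. Total counts of 14243344 to 17125440 set the counting error. The alternatives were other scalings, filters and libraries, DESeq2 1.42.0, limma 3.58.1 (voom, or trend on log2(FPKM + 1) or log2(FPKM + 0.1)), the animal number as a block, and each library left out. The fits were tested on simulated data. The counts of members without overlap were recomputed under alternatives chosen after seeing the data.

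Members and lists were chosen with earlier results of these data known. The text names all members, pathway genes called, the 4 pathway genes with the smallest p per comparison, Noct, Nmrk2, Nadsyn1 and Tdo2, and the 3 genes most correlated (log2 CPM, prior count of 2) with Nampt, Nnmt and Cd38. Gene positions come from GENCODE mouse annotation of GRCm38.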

Additional observations from a re-analysis of the deposited data

How the results depend on the processing

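Of all tested genes, old control against young gave 5 calls, and 137 without a filter on low counts, 168 with DESeq2, 3 with limma-voom, 15 in the 6 libraries compared, 18 and 21 with limma-trend on log2(FPKM + 1) and log2(FPKM + 0.1), 10 with recovered reads and 1 to 10 with a library left out. Old Fabp4 shRNA against old control gave 0, and in the same order 8 without the filter, 7 with DESeq2, 1 and 1 on FPKM, and 0 to 1 with a library left out. Old Fabp4 shRNA against young gave 8, and 94 without the filter, 124 with DESeq2, 0 with limma-voom, 0 in the 6 libraries, 53 and 77 on FPKM, 62 with recovered reads and 0 to 37 with a library left out. Members called in old control against young were 0, and 1 (Cd38) without the filter or with DESeq2. Pathway genes called were 1 in each comparison with young, 0 to 1 with a library left out in both, and in old Fabp4 shRNA against young 2 without the filter, 0 with limma-voom and 0 in the 6 libraries. With a library left out, the members without overlap numbered 6 to 8 in old control against young (beside 25.0% to 31.7% of all tested genes), 1 to 3 between the old groups (17.3% to 28.8%) and 4 to 8 in old Fabp4 shRNA against young (18.8% to 32.8%). Where a group then had 2 libraries, non-overlap is more frequent among all genes. Otherwise the causes of these shifts were not tested.

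Directions turned only in values that passed no test. Without scaling factors Nadsyn1 in old control against young was 0.11, Nmnat1 between the old groups 0.10 and Tdo2 in old Fabp4 shRNA against young 0.23. Tdo2 there was also 0.075 with limma-voom, 0.48 and 0.48 on FPKM and 0.52 with recovered reads, and Sirt5 between the old groups was -0.036 with limma-voom. With a library left out, Naprt ran from -0.11 to 0.42 and Nadsyn1 from -0.28 to 0.29 in old control against young. Between the old groups Naprt ran from -0.014 to 0.16, Nampt from -0.24 to 0.26, Nmnat1 from -0.13 to 0.059, Sirt5 from -0.27 to 0.20 and Nnmt from -0.29 to 0.0099. In old Fabp4 shRNA against young Naprt ran from -0.0028 to 0.50, Sirt3 from -0.0072 to 0.33 and Tdo2 from -0.27 to 0.49. The 3 mean ratios of makers to users moved by less than their SD under each alternative tried. For most alternatives this was fixed in advance, so it shows no robustness. Scaling factors cancel in a ratio within a library, and leaving out 1 of 3 libraries cannot move their mean by the SD. Only the recovered reads, which replace the unnumbered young library alone, could have moved a mean further.

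The labels state no design that links equal animal numbers across groups. Correlations of same-numbered deviations were 0.124, 0.0962, 0.0438 and -0.0475. So few pairs cannot decide whether such libraries share more than the number. With the number as a replicate block, which leaves 1 residual degree of freedom, calls over all tested genes were 158, 73 and 23 in the order above, and 1 member (Cd38, 1.74) was called in old control against young. In this fit only libraries whose number recurs across groups inform the differences. These are young replicates 1 and 5, old control replicates 1 and 5, and old Fabp4 shRNA replicate 1. The Cd38 value thus leaves out old control replicate 2, which at 7.65 CPM lay close to young. Both comparisons with old Fabp4 shRNA rest on 1 library of that group, so their calls decide nothing. Under the replicate block Naprt in old control against young was -0.13. Between the old groups Qprt was 0.16, Nmnat1 0.15 and Nnmt 0.26. In old Fabp4 shRNA against young Nampt was 0.17, Sirt1 -0.038, Sirt3 -0.0019 and Tdo2 0.32. Depth limits Sirt6 and Sarm1 most, with 17 to 62 and 1 to 21 counts per library.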
